A study of Homo sapiens with 16 samples.

Results

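The 8 arrays of cells incubated with 10 nM bortezomib, out of the 16 arrays in the series, were compared at 24 h and at 6 h, with 4 arrays at each time. The cells were LP-1, a human multiple myeloma line with a defective TRAF3 gene, transduced with a lentiviral pIRES2 vector and sorted on eGFP. LP-1-cIAP2-eGFP carries the cIAP2 coding sequence and eGFP, LP-1-eGFP carries eGFP alone, and each line gave 2 biological replicates per time. All cells, the untreated ones included, carry eGFP and lack normal TRAF3, and each line is 1 sorted population of 1 tumour's cells. The 8 untreated arrays, 4 at 6 h and 4 at 24 h with the same lines and replicate numbers, served as the culture-time control. The RNA of all samples had been extracted at the same time and labelled in a single colour for Agilent human arrays. The question was which changes under bortezomib come early and fade, which go on increasing, and which appear only late.

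Bortezomib blocks the proteasome, the complex that degrades ubiquitin-tagged proteins. Unfolded proteins then build up, and cells are known to answer through heat shock factor, which induces chaperones, through NRF1, which induces proteasome subunits, and through the unfolded protein and integrated stress responses, in which ATF4 and CHOP induce genes of amino acid supply, redox defence and cell death. Plasma cells, from which myeloma arises, make large amounts of antibody and are known for their sensitivity to this drug.

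The signal of 1 array stood apart from the other 15. The log2 median signal was 3.18 on replicate 1 of LP-1-cIAP2-eGFP at 24 h with bortezomib and between 5.73 and 6.64 on the others, and 35.5% of its spots were well above background, against 49.0% to 71.1%. Normalized, its 2 replicates differed with an SD of 1.48 over the probes, and those of the other 7 conditions with one of 0.495 to 0.773. Counts are therefore also given without this array. A control array stood apart in another way. In LP-1-eGFP untreated at 24 h, the targets of ATF4 and CHOP were higher on replicate 1 than on replicate 2 by a median of 0.94 on the log2 scale, whereas this median lay between -0.36 and 0.25 in the other 7 conditions and was -0.10 over all probes in the same condition. CHAC1 measured 14.54 on that array and 10.66 on the second replicate, and DDIT3 measured 11.91 and 9.94. For these genes, counts and several values are also given without it. It enters the comparison of 24 h with 6 h under bortezomib through the common estimate of the spread and the line term, and 3805 probes were called without it, against 3834 with it.

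The arrays lay on 2 slides. All 4 bortezomib arrays of LP-1-cIAP2-eGFP were on slide 1, so that the comparison within this line was made within a slide. In LP-1-eGFP both 6 h arrays and 1 of the 24 h arrays were on slide 2 and the other 24 h array on slide 1. Of 10 plasma cell markers, 8 were well above background on all 16 arrays, SLAMF7 was on 13 and PRDM1 on 15. The B cell markers MS4A1 and PAX5, the myeloid marker CSF1R and the stromal markers COL1A2 and LUM were not well above background on any array, and no marker of T, myeloid or stromal cells was on all of them.

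Under bortezomib, expression at 24 h differed from that at 6 h for 3834 of the 33731 probes tested. A probe was called when its Benjamini-Hochberg adjusted p was under 0.05 and its change more than 2-fold. Expression was higher at 24 h for 1367 probes, or 4.05% of those tested, and lower for 2467, or 7.31%. In untreated cells, limma called 0 probes higher and 0 lower between the same times, or 0.0% each way, and 1548 (4.59%) had an unadjusted p under 0.05. The median change of the 1367 higher probes was 1.34 on the log2 scale with bortezomib and 0.07 without, and that of the 2467 lower ones -1.42 and -0.05. The difference between the 2 time changes was itself called for 896 probes in the higher direction (2.66%) and 1763 in the lower (5.23%), and these included 737 of the 1367 and 1506 of the 2467. In a sample of whole cultures, a change in the share of cells that carry a transcript cannot be told apart from a change in its level per cell.

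Of the 1367 higher probes, 964 were also called within LP-1-cIAP2-eGFP and 623 within LP-1-eGFP, and of the 2467 lower ones 1951 and 1139, all on the same arrays. Within LP-1-cIAP2-eGFP, and so within a slide, 1515 probes were higher and 2809 lower, and within LP-1-eGFP 794 and 1329. Without the array of lowest signal, these counts were 1730 and 1854 in LP-1-cIAP2-eGFP and 1108 and 1852 in LP-1-eGFP. Over both lines, 1541 were then higher and 2026 lower, and with the slide as a block 1336 and 2294.

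**Figure D1:**
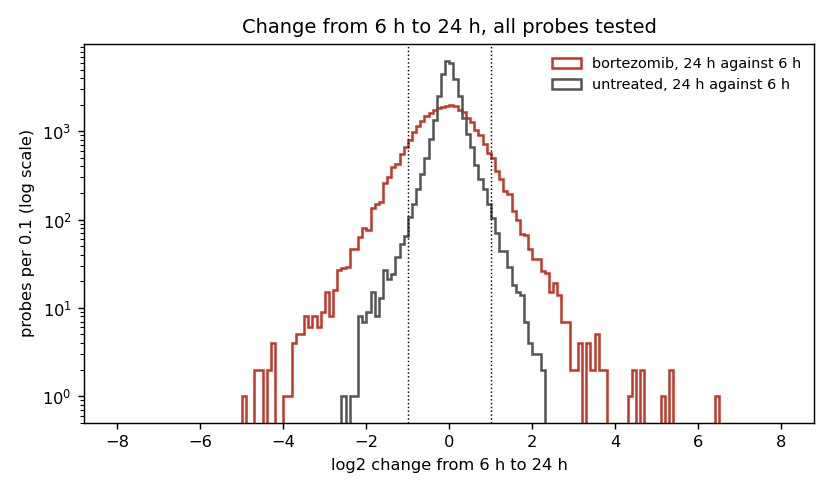
Number of probes (log scale) by log2 change from 6 h to 24 h, in bins of 0.1, for the 4 + 4 bortezomib arrays (red) and the 4 + 4 untreated arrays (grey), over the 33731 probes tested. Dotted lines mark a 2-fold change; the bortezomib curve is wide, with 3834 probes called, and the untreated curve is narrow, with none.

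The largest rise between 6 h and 24 h was that of ANXA1, which encodes annexin A1, a phospholipid-binding protein. In the order LP-1-cIAP2-eGFP replicates 1 and 2, then LP-1-eGFP replicates 1 and 2, which is kept throughout, its normalized log2 signal with bortezomib was 7.02, 7.38, 9.36 and 8.73 at 6 h and 14.61, 14.75, 14.55 and 14.40 at 24 h. The groups did not overlap, and the mean rose from 8.12 ± 1.11 to 14.58 ± 0.14 (SD, n = 4 arrays each), which is 87.7-fold (log2 change 6.45 ± 0.38 SE, adjusted p = 2.65e-07). In untreated cells it was 6.17, 6.76, 8.49 and 7.89 at 6 h and 6.09, 5.62, 6.72 and 6.45 at 24 h, and the difference between the time changes was 7.57 (adjusted p = 7.52e-06).

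Chemokines made up 4 of the 8 largest rises. CCL4, which draws in T cells and monocytes, measured 11.93, 11.02, 6.30 and 6.76 at 6 h and 16, 16, 12.85 and 12.41 at 24 h, a 39.7-fold rise (adjusted p = 1.19e-05). LP-1-cIAP2-eGFP gave the higher level at both times, but every 24 h array exceeded every 6 h array. CCL5, another attractant of T cells, measured 7.09, 6.99, 7.97 and 7.98 at 6 h and 10.93, 10.81, 13.88 and 13.13 at 24 h, a 25.7-fold rise. CCL3L3 rose 13.4-fold (adjusted p = 0.000468), and since CCL3L3, CCL3 and CCL3L1 are near-identical copies, its probe cannot assign the signal to 1 of them. CXCL3, a neutrophil attractant, was not well above background on any 6 h array and was on 3 of 4 at 24 h, where the signal was at least 5.10-fold higher than the background limit of the 6 h arrays (adjusted p of the fitted change 2.22e-06).

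The other 3 large rises were those of OLAH, LBH and IFIT3. OLAH, a thioesterase that releases fatty acids from fatty acid synthase, measured 5.38, 5.81, 5.25 and 5.72 at 6 h and 11.83, 11.45, 9.74 and 9.81 at 24 h, a 35.9-fold rise. It was well above background on 3 of 4 arrays at 6 h, at levels near the background limit, so that this size is less certain than its direction. LBH, a transcription cofactor, was well above background on 2 of 4 arrays at 6 h and on all 4 at 24 h, so that its fitted rise of 21.7-fold is less certain in size than in direction. In LP-1-eGFP it went from 7.15 and 7.01 to 10.57 and 10.69. IFIT3, an interferon-induced protein of antiviral defence, measured 6.32, 6.29, 7.32 and 6.92 at 6 h and 11.02, 10.70, 11.67 and 11.12 at 24 h, a 21.4-fold rise (adjusted p = 2.96e-07), and its relative IFIT1 rose 9.18-fold. Each of these 4 separated the 2 times on all arrays.

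Both IFIT genes lie close together on chromosome 10, and the 250 bases before their starts are shown because interferon-induced genes share a known promoter motif. The sequences are RefSeq promoters of GRCh38.p14 on the plus strand, at chr10:89327747-89327996 for IFIT3 and chr10:89392373-89392622 for IFIT1. Capitals mark matches to the interferon-stimulated response element, searched as GAAA and GAAA with any 2 bases between, on both strands, and matched here on the minus strand.
IFIT3: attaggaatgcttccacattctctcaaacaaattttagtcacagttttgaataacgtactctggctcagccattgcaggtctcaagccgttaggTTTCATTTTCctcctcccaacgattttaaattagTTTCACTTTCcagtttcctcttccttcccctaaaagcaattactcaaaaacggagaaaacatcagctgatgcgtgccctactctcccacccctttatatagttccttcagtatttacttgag
IFIT1: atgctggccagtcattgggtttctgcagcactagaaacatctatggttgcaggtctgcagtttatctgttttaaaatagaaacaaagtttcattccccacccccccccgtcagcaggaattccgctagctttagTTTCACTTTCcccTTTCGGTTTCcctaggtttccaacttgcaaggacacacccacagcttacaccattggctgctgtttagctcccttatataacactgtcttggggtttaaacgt
Within 250 bases before and 50 after the start, this motif occurred in 3.65% of the 27305 RefSeq promoters, in 3.01% of those of the genes tested, and in 12 of the 343 late higher genes with a promoter (3.5%). The share among late higher genes was close to both. It was 8.62% among held higher genes (10 of 116), 2.78% among increasing higher genes (1 of 36) and 2.18% among late lower genes (16 of 734). In the remaining classes it was 0.

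CR2, LAMP5 and SMOC1 were among the largest falls. CR2, a complement receptor of B cells, was not well above background on any 24 h array and was at least 9.04-fold lower than at 6 h (adjusted p = 1.98e-06), while its second probe changed by -1.25. LAMP5, of the lysosomal membrane protein family, measured 8.30, 8.51, 8.87 and 8.75 at 6 h and 2.88, 4.26, 4.18 and 5.03 at 24 h, a fitted change of -4.52. For these genes the 24 h signal is at or near background, so that the fitted sizes are less certain than the direction.

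SMOC1, a secreted calcium-binding protein, was abundant at 6 h and fell by 4.52, from 12.70 ± 0.49 to 8.19 ± 2.24 (SD, n = 4). The fall was by 5.86 in LP-1-cIAP2-eGFP and by 3.17 in LP-1-eGFP, and without the array of lowest signal it was 3.75. CRYBB1, a beta crystallin, fell by 4.23 although its level differed between the lines, at 13.66, 13.19, 10.16 and 10.26 at 6 h and 8.52, 8.65, 6.24 and 6.92 at 24 h. GALNT18, which starts O-linked glycans, measured 12.36, 12.25, 11.60 and 11.68 at 6 h and 6.99, 8.52, 7.23 and 8.34 at 24 h. The actin-binding protein SYNPO fell by 4.28 and the membrane protein GPM6B by 4.32, the latter well above background on 1 of 4 arrays at 24 h. In untreated cells the changes of these genes lay between -0.31 for CRYBB1 and 0.43 for SYNPO.

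To sort the changes by their course, the effect of bortezomib was taken against the untreated arrays of the same time point. At 6 h, 379 probes were higher (1.12%) and 184 lower (0.545%), and at 24 h 2172 were higher (6.44%) and 3701 lower (11%). An early change was called fading when the 24 h effect was smaller and the difference between the effects was called, increasing further when that difference was called in the same direction, and held when both effects were called but not their difference. A change was late when it was called at 24 h and not at 6 h and the difference was called too. Of the 563 probes called at 6 h, 317 (56.3%) were held, 114 (20.2%) increased further and 36 (6.39%) faded. The other 60 higher and 36 lower probes were called at 6 h alone without a called difference, with median effects of 1.21 and -1.34 at 6 h and 0.60 and -0.47 at 24 h. A further 2243 probes were late, 38.2% of the 5873 called at 24 h. The classes share the 6 h and untreated arrays, so no test was made between them, and 1196 higher and 2001 lower probes were called at 24 h alone without a called difference.

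**Figure D2:**
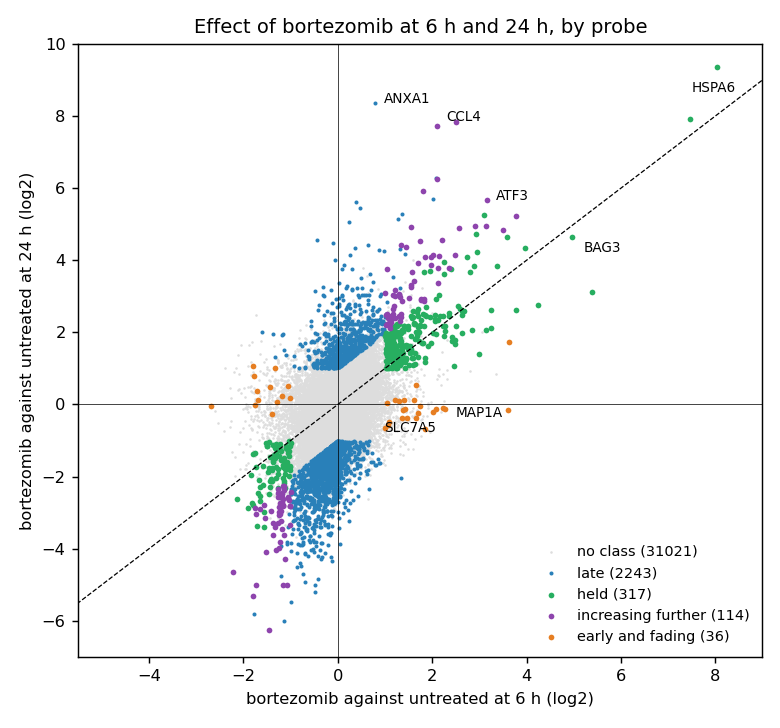
Effect of bortezomib (log2, bortezomib minus untreated, means of 4 arrays each) at 6 h (horizontal) and at 24 h (vertical) for each of the 33731 probes tested, coloured by class. The dashed line marks equal effects; most of the 36 early and fading probes lie near 0 on the vertical axis, with RFPL1 at 1.73, most of the 2243 late probes near 0 on the horizontal axis, and HSPA6 at the upper right was held.

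Early and fading changes were few, and SLC7A5, SLC1A4, GPT2 and PSAT1 were among the 18 named genes that were higher. The class held 23 higher probes, with a median effect of 1.62 at 6 h and -0.14 at 24 h, and 13 lower ones, at -1.43 and 0.22. SLC7A5, the carrier of large neutral amino acids, was 14.09, 14.12, 14.92 and 15.02 at 6 h with bortezomib against 12.48, 12.42, 13.17 and 13.14 without, and 13.13, 12.98, 12.44 and 13.14 at 24 h against 12.93, 12.54, 13.56 and 12.88. Every treated array thus exceeded its line's untreated arrays at 6 h. At 24 h this still held in LP-1-cIAP2-eGFP by a smaller margin, while in LP-1-eGFP the highest value was that of the untreated array that stood apart. The effect went from 1.74 to -0.06 (difference -1.79 ± 0.337 SE, adjusted p = 0.00283). SLC1A4, a carrier of alanine, serine and cysteine, went from 1.36 to -0.36, GPT2, a mitochondrial alanine aminotransferase, from 1.39 to -0.17, and PSAT1, an enzyme of serine synthesis, from 1.20 to 0.13. PSAT1 was well above background only in LP-1-cIAP2-eGFP.

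Chaperone genes PDIA4 and HSPA4L were in this class too. PDIA4, a disulphide isomerase of the endoplasmic reticulum, measured 13.73, 13.92, 13.40 and 13.55 at 6 h with bortezomib and 12.25, 12.52, 12.04 and 12.29 at 24 h, while the 8 untreated arrays lay between 11.72 and 12.42. Its time change was -1.38 ± 0.117 (adjusted p = 3.12e-06). HSPA4L, a cytosolic HSP110 chaperone, fell by 1.71 between the times, and its effect went from 1.62 to 0.12. The effect on MAP1A, which encodes a microtubule protein, went from 2.27 to -0.14. RFPL1, of the RFP family, had the larger effect at 6 h and went from 3.62 to 1.73, from a level near background in untreated cells.

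The early falls whose effect faded included RIMBP3, named for its binding to RIM proteins, and GFI1, a transcriptional repressor of blood cells. Over the 13 lower probes of this class, the median time change was 1.38 with bortezomib and -0.61 in untreated cells. Of these, 8 were called between the times with bortezomib, so that the fading is in part a fall in untreated cells. RIMBP3 was 10.65, 10.69, 10.31 and 10.46 at 6 h with bortezomib, 12.21, 12.41, 11.97 and 12.32 at 24 h, and between 12.06 and 12.37 on every untreated array. Its effect went from -1.76 to -0.01 (difference 1.75, adjusted p = 2.84e-05). GFI1 was 7.42, 7.59, 6.94 and 6.93 at 6 h and 9.43, 9.51, 8.47 and 8.57 at 24 h, and its effect of -1.05 at 6 h became 0.52. IFT70B, of intraflagellar transport, rose by 1.38 between the times, from an effect of -1.02 to 0.19. GPR135, an orphan receptor, measured about the same at both times with bortezomib (log2 change 0.21), whereas untreated cells changed by -0.92, so that its effect went from -1.39 to -0.26. Without the array of lowest signal 57 probes were fading, 28 of them higher and 29 lower, so that rises no longer outnumbered falls.

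Among the 31 targets of ATF4 and CHOP, the effects of some members declined after 6 h and those of others grew. At 6 h 18 were higher (58.1%, against 1.41% of all genes) and 0 lower, with a median effect of 1.23, and at 24 h 12 were higher (38.7%, against 7.48%) and 0 lower, with a median of 0.79, against -0.03 and -0.09 over all 16398 genes. Without the untreated array that stood apart, 15 were higher at 24 h, with a median of 0.98, and with normexp background correction the median at 24 h was 0.43. By limma's unadjusted p under 0.05, 28 were higher at 6 h (90.3%, against 9.87% of all genes) and 15 at 24 h (48.4%, against 23.2%). Between the times under bortezomib, 6 rose (19.4%, against 4.48%) and 2 fell (6.45%, against 8.23%), and the difference of the effects was called higher for 4 and lower for 4. Those that faded were SLC7A5, GPT2 and PSAT1. Those that increased further were ATF3, a transcription factor of the stress response (3.16 to 5.67), PPP1R15A, the phosphatase subunit that reverses the translation block (2.13 to 3.79), and CTH, which makes cysteine (1.54 to 3.26). TNFRSF10B, the death receptor DR5, was late (0.61 to 1.78). SESN2, DDIT4, JDP2, SLC7A11, SLC3A2, CEBPB, DDIT3 and TRIB3 were held.

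ATF3 measured 13.41, 12.46, 13.27 and 13.04 at 6 h with bortezomib and 16.22, 16.29, 14.61 and 15.02 at 24 h, a 5.63-fold rise (adjusted p = 0.00204). The difference between its effects had an adjusted p of 0.028, which was 0.0532 once slide was a block and between 0.0504 and 0.063 without 1 of the arrays LP-1-cIAP2-eGFP untreated 6 h replicate 1 or 24 h replicate 1 or 2, bortezomib 6 h or 24 h replicate 2, or LP-1-eGFP untreated 6 h replicate 1 or 24 h replicate 2. The other ATF3 probes changed by 2.12, 0.25 and 2.14. CHAC1, which degrades glutathione, went the other way. It measured 13.63, 13.53, 14.68 and 14.56 at 6 h and 11.60, 12.71, 11.81 and 12.75 at 24 h, and the times did not overlap, but the change of -1.88 was not called (adjusted p = 0.0558), while a second probe changed by -3.10. Its effect was 3.35 at 6 h and 0.86 at 24 h. Without the untreated array that stood apart, the same change of -1.88 was called (adjusted p = 0.000491), the effect at 24 h was 1.80, and CHAC1 was early and fading (difference -1.55, adjusted p = 0.0319). The effects at 24 h were then 6.25 for ATF3, 3.24 for SLC7A11 and 3.02 for SESN2, in place of 5.67, 2.76 and 2.61, and DDIT3, which encodes CHOP, and TRIB3 increased further, DDIT3 with a difference of 1.85 (adjusted p = 0.000226) in place of 1.35 (0.0942). The list then held 4 fading, 5 increasing, 1 late and 7 held members in place of 3, 3, 1 and 8.

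The promoter of CHAC1 is shown as an example of the list. It is the 250 bases before the start on the plus strand (RefSeq, GRCh38.p14, chr15:40953221-40953470), with the amino acid response element, searched as TGATGNAA on both strands, in capitals, here on the minus strand.
CHAC1: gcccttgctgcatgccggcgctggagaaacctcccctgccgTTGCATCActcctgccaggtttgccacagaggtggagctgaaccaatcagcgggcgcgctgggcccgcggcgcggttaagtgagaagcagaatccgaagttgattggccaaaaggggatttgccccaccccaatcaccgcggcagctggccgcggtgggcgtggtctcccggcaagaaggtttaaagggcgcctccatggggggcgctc
This motif occurred in 5 of the 24 list members with a promoter (20.8%), in 3.67% of all promoters and in 2.15% of those of all genes tested.

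**Figure D3:**
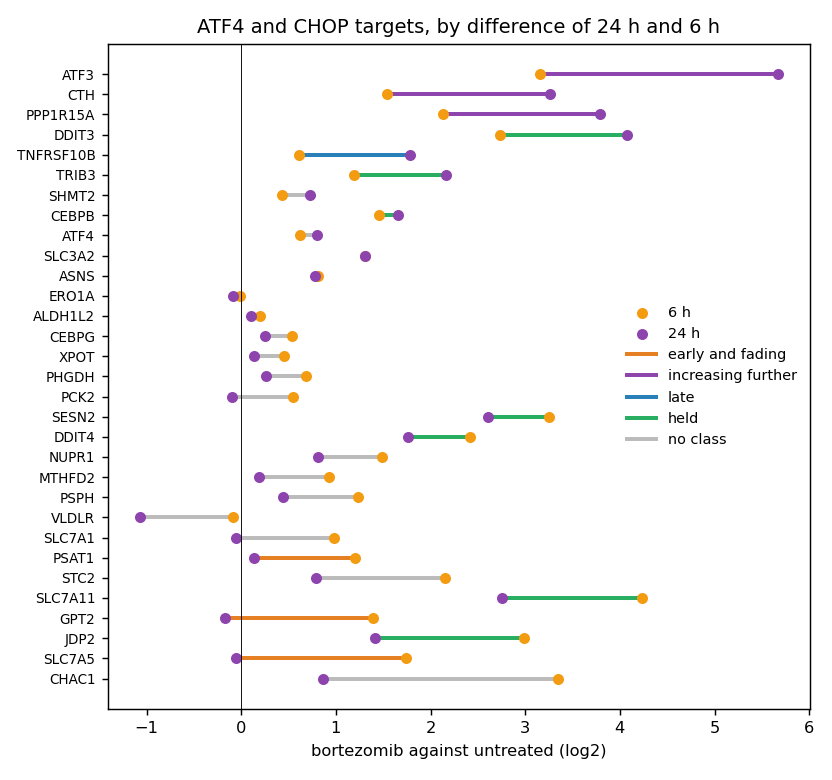
Effect of bortezomib (log2, against untreated cells, 4 arrays each) at 6 h (orange) and 24 h (purple) for the 31 targets of ATF4 and CHOP tested, ordered by the difference of the 2 effects. Line colour gives the class; ATF3 at the top went from 3.16 to 5.67 and CHAC1 at the bottom from 3.35 to 0.86, or to 1.80 without the untreated array that stood apart.

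Cytosolic heat shock genes were higher at both times, and 10 of the 27 tested were held. Of the 27, 15 were higher at 6 h (55.6%, against 1.41% of all genes) and 14 at 24 h (51.9%, against 7.48%), 0 were lower at either time, and the median effect was 1.06 at 6 h and 1.01 at 24 h. HSPA6, an inducible HSP70, was 16.33, 15.95, 17.44 and 17.48 at 6 h with bortezomib against 8.85, 9.04, 8.56 and 8.61 without, and 16.85, 17.13, 16.34 and 16.97 at 24 h against 7.60, 7.64, 6.77 and 7.78. Treated and untreated arrays lay far apart at both times, by 8.03 and 9.37 on the log2 scale, and the 2 treated groups overlapped (log2 change 0.02, adjusted p = 0.973). BAG3, which hands HSP70 clients to autophagy, had effects of 4.97 and 4.63, DNAJB1, the HSP40 partner of HSP70, of 3.58 and 4.64, and ZFAND2A, an arsenite-inducible proteasome adaptor, of 3.97 and 4.33. Between the times under bortezomib 1 member of the list rose (3.7%, against 4.48% of all genes) and 5 fell (18.5%, against 8.23%). Without the array of lowest signal 1 rose and 3 fell, against 853 and 1116 of all 16398 genes.

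HSPA1B, another inducible HSP70, shows why the untreated times matter. With bortezomib it was 18.06, 17.98, 18.15 and 18.14 at 6 h and 18.16, 18.27, 17.68 and 17.97 at 24 h, and its change of -0.06 was within the spread, but untreated cells changed by -1.53, which was not called (adjusted p = 0.355). Its effect therefore counted as increasing further, from 3.77 to 5.24 (adjusted p of the difference 0.0273, and 0.0505 to 0.0617 without any 1 of LP-1-cIAP2-eGFP bortezomib 6 h replicate 1 or 2, LP-1-cIAP2-eGFP untreated 6 h replicate 2, LP-1-eGFP untreated 6 h replicate 1 and LP-1-eGFP bortezomib 24 h replicate 2). HSPA1A and HSPA1B are nearly identical in their coding sequence, so the probe may read both.

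The promoter of HSPA6, the gene with the largest held effect, is shown as the 250 bases before its start on the plus strand (RefSeq, GRCh38.p14, chr1:161524290-161524539). Capitals mark a heat shock element, searched as GAA, TTC and GAA with any 2 bases between one and the next, on both strands, and matched here on the minus strand.
HSPA6: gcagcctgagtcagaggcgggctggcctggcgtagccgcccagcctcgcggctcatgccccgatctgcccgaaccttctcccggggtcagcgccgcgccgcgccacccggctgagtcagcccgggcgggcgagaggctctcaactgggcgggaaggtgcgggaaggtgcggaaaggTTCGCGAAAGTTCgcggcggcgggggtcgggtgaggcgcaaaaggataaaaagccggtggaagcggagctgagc
The motif occurred in 6 of 25 heat shock genes with a promoter (24.0%) and in 5 of 116 held higher genes (4.31%). It was in 0.487% of all promoters and in 0.379% of those of the genes tested. Since 10 of the 27 heat shock genes were held, the first shares rest in part on the same genes.

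More genes of folding and degradation in the endoplasmic reticulum were called at 6 h than at 24 h. Of 29 tested, 11 were higher at 6 h (37.9%, against 1.41% of all genes) and 5 at 24 h (17.2%, against 7.48%), 2 were lower at 24 h (6.9%, against 12.5%), and the median effect was 0.72 and then 0.48. HSPA5, the main chaperone of this compartment, was held at 2.36 and 2.44, as was DNAJB9 at 1.68 and 1.89. XBP1, the transcription factor of secretory cells, and EDEM3, of glycoprotein degradation, were late and lower, XBP1 at -0.45 and -1.46. Without the untreated array that stood apart, the difference for XBP1 was under 2-fold (-0.97 in place of -1.01), and 7 genes of the list were higher at 24 h in place of 5. Among 23 NRF2 genes 4 were higher at 6 h (17.4%, against 1.41% of all genes) and 6 at 24 h (26.1%, against 7.48%). The rises of 4 were held, against 145 of all 16398 genes. These were HMOX1, which breaks down haem (2.49 and 1.68), SLC7A11, the cystine carrier (4.23 and 2.76), OSGIN1 and SRXN1. Of the 8 metallothioneins, limma called 0 in these comparisons. At an unadjusted p under 0.05, 0 were higher at 6 h (against 9.87% of all genes). At 24 h 2 were (25.0%, against 23.2%), a share close to that of all genes.

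The held falls that the rule names were those of SPRY1, TCHH, TRIM49 and NEURL1B. SPRY1, an inhibitor of growth factor signalling, had effects of -1.91 at 6 h and -2.87 at 24 h, and TCHH, trichohyalin, of -1.83 and -1.97. TRIM49 and NEURL1B, of ubiquitin ligase families, were well above background on 2 of 4 arrays at 6 h and on 1 at 24 h with bortezomib, so that their levels are uncertain.

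**Figure D4:**
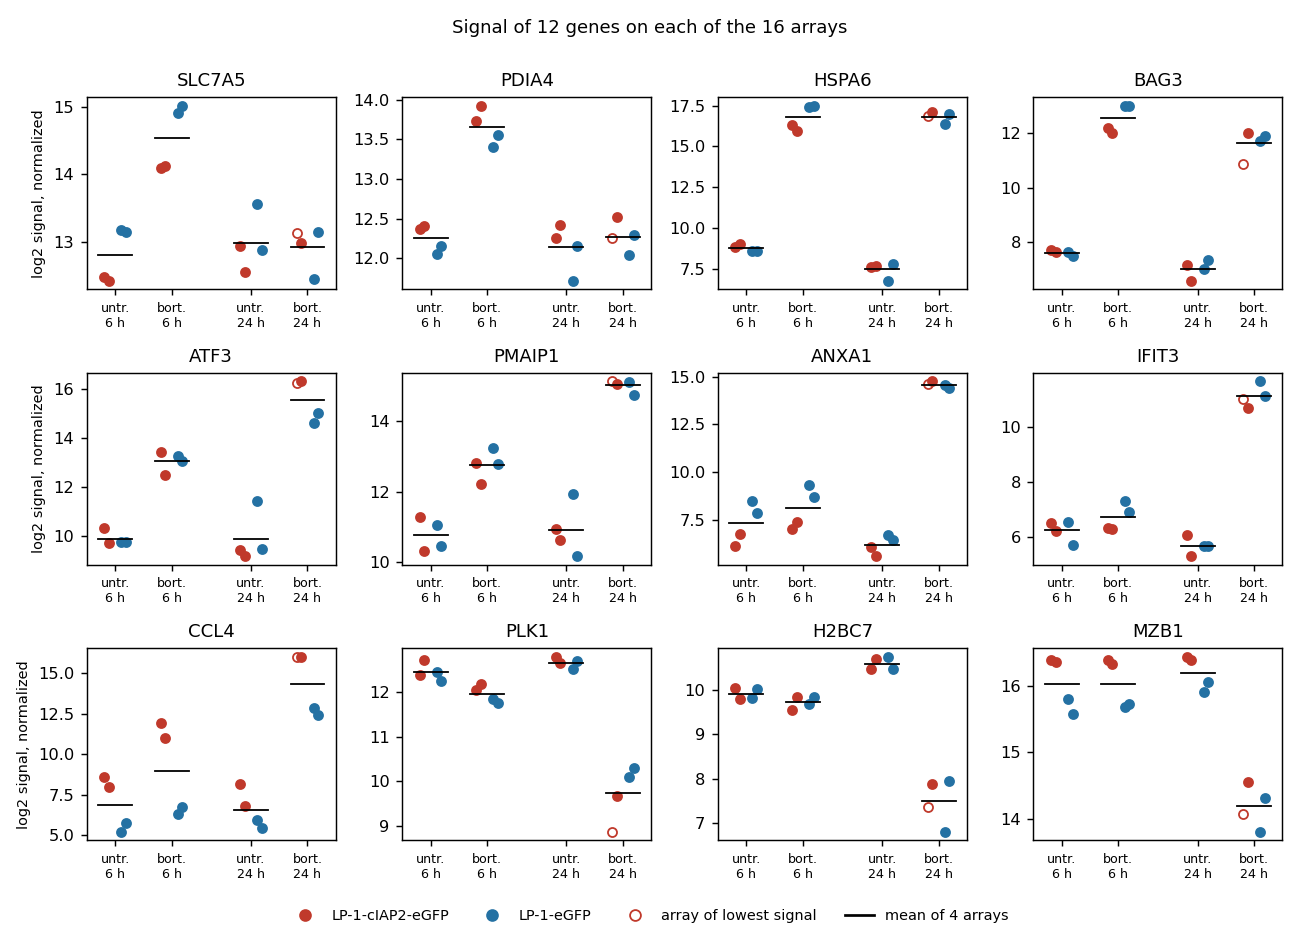
Normalized log2 signal of 12 genes on each of the 16 arrays, in untreated (untr.) and bortezomib (bort.) cells at 6 h and 24 h; red, LP-1-cIAP2-eGFP, blue, LP-1-eGFP, open circle, the array of lowest signal, bar, mean of the 4 arrays. SLC7A5 and PDIA4 are high at 6 h alone, HSPA6 and BAG3 at both times, ATF3, PMAIP1 and CCL4 step up at each time, ANXA1 and IFIT3 are high at 24 h, and PLK1, H2BC7 and MZB1 are low at 24 h.

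The class of effects that increased further had 63 higher probes, with a median effect of 1.51 at 6 h and 3.10 at 24 h, and 51 lower ones, at -1.22 and -2.97. PMAIP1, which encodes the pro-apoptotic protein NOXA, was 12.81, 12.20, 13.23 and 12.78 at 6 h and 15.11, 15.05, 15.09 and 14.73 at 24 h with bortezomib, a 4.73-fold rise (adjusted p = 0.000289), and its effect went from 1.98 to 4.08. GADD45A, a growth arrest gene, rose 4.01-fold, from 12.61, 12.19, 12.88 and 12.55 to 15.05, 14.75, 14.30 and 14.14. The transcription factor genes MAFF and JUN rose 3.41-fold and 2.95-fold. Arrays lay close for MAFF, whose mean went from 9.13 ± 0.10 to 10.90 ± 0.06 (SD, n = 4).

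By the rule of size, CCL4, LURAP1L, SERPINB8 and SEL1L3 led the higher members. SERPINB8, an inhibitor of serine proteases, measured 7.63, 7.71, 7.80 and 7.80 at 6 h and 10.62, 10.11, 10.32 and 10.08 at 24 h (log2 change 2.55, adjusted p = 3.96e-07). LURAP1L rose by 2.66 and SEL1L3 by 2.86. The lower members by the same rule included POU3F2, OR13A1 and LINC03062. POU3F2, a transcription factor, was 10.46, 10.66, 10.49 and 10.60 at 6 h and 7.41, 7.82, 8.51 and 8.73 at 24 h, with 11.81 to 12.32 in untreated cells. OR13A1, an olfactory receptor gene, changed by -2.22, its second probe by -0.35, and the long non-coding RNA LINC03062 by -2.52.

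Several genes of ubiquitin handling and autophagy rose. Of 22 tested, 5 rose (22.7%, against 4.48% of all genes) and 1 fell (4.55%, against 8.23%) between the times, and the median effect was 0.53 at 6 h and 1.16 at 24 h. GABARAPL1, which builds autophagosomes, had effects of 3.51 and 4.84, and SQSTM1, the receptor p62, of 1.83 and 2.87. The differences lost their call when arrays were scaled to the 75th percentile, at 1.02 (adjusted p = 0.057) for GABARAPL1 and, under 2-fold, at 0.82 for SQSTM1. The SQSTM1 difference of 1.04 was also under 2-fold with array weights (0.94), with slide as a block (0.99) and without any 1 of LP-1-cIAP2-eGFP bortezomib 6 h replicate 1, bortezomib 24 h replicate 1 or 2 and untreated 24 h replicate 2, and LP-1-eGFP untreated 6 h replicate 1 and 24 h replicate 2, at 0.91 to 0.97. MAP1LC3B, the LC3 protein, was late and measured 12.57, 12.76, 13.03 and 13.02 at 6 h and 14.56, 14.46, 13.99 and 13.82 at 24 h, a 2.58-fold rise. TAX1BP1, another receptor, was late as well (0.38 and 1.54).

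Proteasome subunits passed the call mainly against untreated cells at 24 h. Between the times under bortezomib limma called 0 of 33, although 20 were higher (60.6%, against 20.5% of all genes) and 0 lower at an unadjusted p under 0.05. Against untreated cells 2 were higher at 6 h (6.06%, against 1.41% of all genes) and 9 at 24 h (27.3%, against 7.48%), and the median effect was 0.49 and 0.85. At an unadjusted p under 0.05, 31 were higher at 6 h and all 33 at 24 h, against 9.87% and 23.2% of all genes. With arrays scaled to the 75th percentile the medians were 0.63 and 0.64, and the median time change was 0.05 in place of 0.26, so that the increase between the times depends on the scaling. PSMC4, an ATPase subunit, was 14.33, 14.40, 14.17 and 14.22 at 6 h and 15.07, 15.29, 15.35 and 15.17 at 24 h. Its change of 0.94 ± 0.102 was under 2-fold but had an adjusted p of 1.87e-05. PSMD12 had effects of 1.30 and 1.87.

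Late higher changes comprised 678 probes of 505 named genes, with a median effect of 0.14 at 6 h and 1.58 at 24 h. ANXA1, OLAH, IFIT3 and CCL5 led them. IER3, an early response gene whose effect at 6 h was 0.00, rose 3.67-fold between the times, from 8.57, 8.93, 9.41 and 9.84 to 10.46, 10.86, 11.13 and 11.81. GADD45G, a relative of GADD45A, rose 4.39-fold. Of 28 immediate-early genes 4 rose and 1, KLF2, fell between the times (4 and 0 without the array of lowest signal), of 23 p53 and growth arrest genes 3 rose and 1, BTG2, fell, and of 31 apoptosis regulators 2 rose and 1 fell. Over all genes tested, 4.48% rose and 8.23% fell, and in this comparison the apoptosis regulators, at 6.45% and 3.23%, did not stand out from them. Against untreated cells 3 of the 31 were higher at 6 h (9.68%, against 1.41% of all genes) and 0 lower. At 24 h 7 were higher (22.6%, against 7.48%) and 2 lower (6.45%, against 12.5%). BCL2L1, which encodes the survival protein BCL-XL, fell by 1.38, from 10.01 ± 0.50 to 8.63 ± 0.62 (SD, n = 4), with no overlap, and BCL2 had a late effect of -1.06, its second probe changing by -0.29 between the times.

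Of the 22 NF-κB feedback and target genes, 2 rose between the times (9.09%, against 4.48% of all genes) and 3 fell (13.6%, against 8.23%). Both that rose were chemokines, CCL3 and CCL4, and the CCL3 signal may include its near-identical copies. Against untreated cells 2 of the 22 were higher (9.09%, against 1.41% of all genes) and 0 lower (against 0.628%) at 6 h. At 24 h 6 were higher (27.3%, against 7.48%) and 2 lower (9.09%, against 12.5%). At an unadjusted p under 0.05, 4 were higher at 6 h (18.2%, against 9.87% of all genes) and 2 lower (9.09%, against 12.8%). By the same measure 8 were higher at 24 h (36.4%, against 23.2%) and 7 lower (31.8%, against 29.9%). The share of lower genes was thus close to that of all genes at 24 h. In this list the median effect was 0.10 at 6 h and -0.06 at 24 h, the latter 0.18 when arrays were scaled to the 75th percentile. CCND2, cyclin D2, fell most, from 15.19, 15.15, 14.72 and 14.88 to 12.31, 12.52, 11.64 and 11.85, which is 7.49-fold (adjusted p = 3.96e-08). It had measured 14.76 to 15.51 in untreated cells. BCL3, a nuclear NF-κB cofactor, fell by 1.44.

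Late lower changes comprised 1565 probes of 1097 named genes, with a median effect of -0.21 at 6 h and -1.74 at 24 h, and genes of cell division were among them. Of 39 G2/M and mitosis genes, limma called 0 at 6 h, where 13 were lower (33.3%, against 12.8% of all genes) and 3 higher at an unadjusted p under 0.05, and 23 were lower at 24 h (59.0%, against 12.5% of all genes), with a median effect of -0.29 and then -1.20. Between the times under bortezomib 12 fell (30.8%, against 8.23%) and 0 rose, and without the array of lowest signal 10 fell. PLK1, a mitotic kinase, was 12.05, 12.17, 11.83 and 11.74 at 6 h and 8.88, 9.67, 10.10 and 10.29 at 24 h, a 4.65-fold fall (adjusted p = 2.48e-05). CDC20, which activates the anaphase complex, was 11.86, 11.97, 11.57 and 11.36 and then 10.57, 10.02, 9.99 and 10.00, a 2.91-fold fall. TOP2A, AURKA and BIRC5, which encodes survivin, fell by 2.00, 1.57 and 1.28. The 42 genes of G1/S and DNA replication had a median effect of -0.08 and -0.61. Of these, limma called 0 at 6 h, and 10 were lower at 24 h (23.8%, against 12.5% of all genes). By limma's unadjusted p under 0.05, 12 were lower at 6 h (28.6%, against 12.8%) and 7 higher (16.7%, against 9.87%). Between the times 0 rose and 6 fell (14.3%, against 8.23%), among them E2F2 by 1.60 and TYMS, thymidylate synthase, by 1.05.

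Replication-dependent histones, which are made in S phase, were lower at 24 h in 31 of 55 genes (56.4%, against 12.5% of all genes) and at 6 h in 0 by limma, with 0 at an unadjusted p under 0.05 as well, with a median effect of -0.12 and -1.11. Between the times 9 fell (16.4%, against 8.23%) and 0 rose under bortezomib, 13 fell without the array of lowest signal, and the median time change was -0.54 with bortezomib and 0.43 in untreated cells, so that both enter the effect at 24 h. H2BC7 was 9.55, 9.84, 9.68 and 9.84 at 6 h and 7.37, 7.89, 6.81 and 7.94 at 24 h, a 4.68-fold fall (adjusted p = 6.73e-06), while untreated cells measured 9.81 to 10.75. Histone genes are close in sequence and their probes may read several copies, so their members are not independent.

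Promoters of PLK1, CDC20 and H2BC7 are shown because G2/M and histone genes moved together. They are the 250 bases before the start on the plus strand (RefSeq, GRCh38.p14), at chr16:23678639-23678888, chr1:43358731-43358980 and chr6:26199266-26199515. Capitals mark the CHR element TTTGAA and the CCAAT box, each on either strand, which do not overlap here.
PLK1: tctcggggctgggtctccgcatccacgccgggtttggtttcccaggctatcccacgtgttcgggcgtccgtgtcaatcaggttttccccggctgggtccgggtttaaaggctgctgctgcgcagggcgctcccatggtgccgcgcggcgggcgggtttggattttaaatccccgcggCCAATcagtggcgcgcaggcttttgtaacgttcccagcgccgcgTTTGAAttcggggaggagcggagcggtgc
CDC20: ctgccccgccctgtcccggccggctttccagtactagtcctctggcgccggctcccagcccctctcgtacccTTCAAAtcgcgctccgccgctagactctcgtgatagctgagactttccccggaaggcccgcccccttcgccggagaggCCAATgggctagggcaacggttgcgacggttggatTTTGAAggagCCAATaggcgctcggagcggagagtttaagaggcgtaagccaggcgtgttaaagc
H2BC7: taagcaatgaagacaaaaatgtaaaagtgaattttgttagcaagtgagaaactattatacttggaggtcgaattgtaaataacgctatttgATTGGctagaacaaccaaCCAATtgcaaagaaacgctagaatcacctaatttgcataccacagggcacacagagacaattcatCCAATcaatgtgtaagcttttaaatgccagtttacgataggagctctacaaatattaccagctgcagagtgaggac
The CHR element occurred in 23 of 34 G2/M genes with a promoter (67.6%) in 15.4% of all promoters, in 10.7% of those of the genes tested, and in 88 of 734 late lower genes (12%), a share close to that of the genes tested. The CCAAT box occurred in 26 of the 34 G2/M genes (76.5%), in 44 of 50 histone genes (88.0%) and in 35.7% of all promoters.

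Some genes of plasma cell identity also fell late. Of 14 tested, 6 fell (42.9%, against 8.23% of all genes) and 0 rose between the times (4 and 1 without the array of lowest signal), 1 was lower at 6 h and 8 at 24 h (57.1%, against 12.5%), and the median effect was -0.15 and -1.15. TNFRSF13B, the receptor TACI, was 11.84, 11.77, 11.10 and 11.20 at 6 h and 8.98, 9.57, 8.84 and 9.01 at 24 h, a 5.19-fold fall (adjusted p = 2.47e-07). MZB1, a chaperone of antibody assembly, was 16.39, 16.33, 15.68 and 15.73 and then 14.07, 14.55, 13.81 and 14.31, a 3.59-fold fall. PRDM1, the transcription factor of plasma cell fate, fell by 1.72 on the 3 arrays with a value at 24 h. SLAMF7, a surface receptor of plasma cells, had a mean of 7.79 at 6 h and 8.51 at 24 h, and POU2AF1, a coactivator of B cell transcription, of 14.26 and 14.43, and neither change was called. SDC1 was lower at both times, at -1.19 and -2.46, and its further decrease (-1.27, adjusted p = 0.0367) lost its call once slide was a block (-1.32, adjusted p = 0.0555), and its adjusted p was between 0.0605 and 0.0803 without 1 of most other arrays.

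In metabolism, 6 of 32 genes of cholesterol and fatty acid synthesis fell between the times (18.8%, against 8.23% of all genes) and 0 rose, and the median effect was -0.08 and -0.48. FASN, fatty acid synthase, was 14.23, 14.27, 14.50 and 14.38 at 6 h and 13.10, 13.02, 12.95 and 13.19 at 24 h, a 2.43-fold fall (adjusted p = 1.06e-06). ELOVL6, which elongates fatty acids, fell by 1.89, and by 1.30 without the array of lowest signal. Of 72 mitochondrial respiratory chain genes 5 fell (6.94%, below the 8.23% of all genes tested), among them ATP5MC1, of ATP synthase, by 1.54 and NDUFV2, of complex I, by 1.35, with a median effect of -0.10 and -0.46. At an unadjusted p under 0.05, 50 of the 72 were lower (69.4%, against 26.6% of all genes) and 2 higher between the times. Of 77 cytosolic ribosomal protein genes 1, RPL27A, fell, and the median effect was -0.04 and -0.02, or 0.18 and 0.26 with arrays scaled to the 75th percentile. Of 20 cytosolic tRNA synthetases 2 fell and 0 rose between the times, a share close to that of all genes. Against untreated cells limma called 0 at 6 h, and at 24 h 3 higher (against 7.48% of all genes) and 1 lower (against 12.5%). At an unadjusted p under 0.05, 10 of the 20 were higher at 6 h (against 9.87%) and 0 lower. By the same measure 8 were higher at 24 h (against 23.2%) and 6 lower (against 29.9%). Their median effect was 0.29 at 6 h and 0.13 at 24 h.

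**Figure D5:**
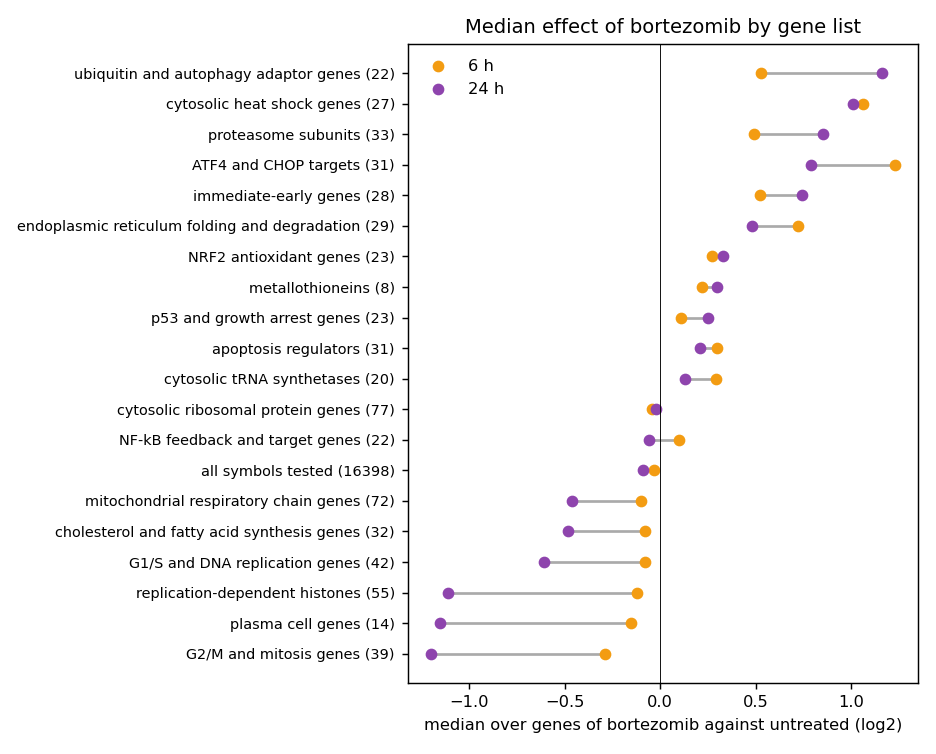
Median effect of bortezomib (log2, against untreated cells) over the tested genes of each list at 6 h (orange) and 24 h (purple), with the number of genes in brackets; lists with under 8 genes are left out. Heat shock genes stayed near 1, ATF4 and CHOP targets declined from 1.23 to 0.79 (0.98 without the untreated array that stood apart and 0.43 with normexp background correction), and G2/M, plasma cell and histone genes moved from near 0 to below -1, while all 16398 genes stayed near 0.

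The time change under bortezomib differed between the lines for few probes. The difference was called larger in LP-1-cIAP2-eGFP for 12 of 33715 probes (0.0356%) and smaller for 7 (0.0208%), and with array weights for 0. The condition with the array of lowest signal enters this contrast, and 77 probes were called without that array and 7531 without its partner, replicate 2, when it stood alone. Without LP-1-eGFP bortezomib 6 h replicate 1, 0 were called, and 2965 probes had an unadjusted p under 0.05 on all arrays. BAG4, a regulator of HSP70, was 8.25, 8.67, 8.89 and 8.84 at 6 h and 11.09, 10.72, 8.43 and 8.65 at 24 h, so that it changed by 2.45 in LP-1-cIAP2-eGFP and by -0.32 in LP-1-eGFP. Its second probe changed by 0.70 over both lines and was not called. RGS2, a brake on G protein signalling, went from 11.92 and 11.64 to 15.17 and 14.82 in LP-1-cIAP2-eGFP, while LP-1-eGFP, at 14.52 and 14.27, was already high at 6 h and measured 14.62 and 14.60 at 24 h. In the other direction, SPP1, osteopontin, changed by 0.09 in LP-1-cIAP2-eGFP and by 2.51 in LP-1-eGFP, where it was 6.05 and 6.00 at 6 h and 8.57 and 8.50 at 24 h.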

How the data were processed

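The 16 samples were hybridised singly to Agilent human arrays. The deposited scanner files hold the processed intensity of each spot, made with Agilent Feature Extraction 10.7.3.1 per the submitters' processing notes; a second table, which the authors normalized by quantiles, holds log2 values and was an alternative here (against scanner values centred on each probe's median over the arrays, each column had r of at least 0.9984 with its own array and at most 0.6362 with another). Control spots and outlier spots were left out, spots of a probe averaged, and log2 intensities quantile-normalized. Probes well above background on both replicates of at least 1 condition were tested (33731 of 50599). Symbols came from RefSeq accessions for 55.7% of probes.

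limma 3.58.1 (R 4.3.3) was fitted to all arrays with the 4 treatment and time groups and the line as covariate. Probes were called at a Benjamini-Hochberg adjusted p under 0.05 and over 2-fold. The difference between lines came from a fit with a mean for each of the 8 conditions. Errors after ± are SE for changes and SD for levels. The labels call the replicates biological but name no separate culture, so p-values measure the spread between these samples. The number of arrays limits the precision.

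Named genes, by the brightest probe, were the 8 largest rises and falls called also without the array of lowest signal and seen in each line, the 4 largest of each class and direction, the 3 largest differences between lines each way, and list members as examples; 1 gene that the rule names is not reported here. The members and lists were chosen with earlier results of these data known. "At least" folds compare the bright group's mean with the higher, per array, of the dim probe's signal and the lowest signal well above background. Alternatives were another scaling, normexp background correction (offset 50), the deposited table, 2 filters, other designs, blocks, array weights and leaving out each array. The scripts were tested on simulated data.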

Additional observations from a re-analysis of the deposited data

Results flagged for a closer look

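The change from 6 h to 24 h with bortezomib differed between the lines for 6 named genes by the limma test of that difference itself. HBEGF, a growth factor that binds the EGF receptor, gave 5.26 (LP-1-cIAP2-eGFP minus LP-1-eGFP, log2; adjusted p = 0.0324), with 2.67, 3.10, 6.88 and 6.64 at 6 h and 5.85, 6.17, 4.24 and 5.00 at 24 h, and was well above background on 2 of 4 arrays at each time, so that the size of this difference is a fitted one and less certain than its direction. RGS2 gave 3.00 (adjusted p = 0.0135) and BAG4 2.77 (adjusted p = 0.0135), both from a change in LP-1-cIAP2-eGFP.

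In the other direction HBD, a haemoglobin chain, gave -3.07 (adjusted p = 0.0111). It measured 11.59, 11.34, 8.28 and 7.83 at 6 h and 6.69, 6.74, 6.55 and 6.20 at 24 h, so that the lines differed at 6 h and were close at 24 h. SPP1 gave -2.42 (adjusted p = 0.0135) and P2RY6, a nucleotide receptor, -2.09 (adjusted p = 0.0465). P2RY6 measured 11.46, 11.38, 8.31 and 8.21 at 6 h and 10.38, 10.91, 9.56 and 9.59 at 24 h. For HBEGF, RGS2, SPP1 and P2RY6, as for HBD, the levels of the lines lay closer together at 24 h than at 6 h. The array of lowest signal is 1 of the 4 arrays at 24 h. The size of each of these differences without that array is not given here, only the count of probes called.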

How the results depend on the processing

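None of the gene values changed direction. The balance of calls between lines turned from 12 higher and 7 lower to 3 and 9 without LP-1-eGFP bortezomib 24 h replicate 1, and to 2763 and 4768 without LP-1-cIAP2-eGFP bortezomib 24 h replicate 2, which leaves the array of lowest signal alone in its condition. Without LP-1-cIAP2-eGFP bortezomib 6 h replicate 1 or 2 it was 0 and 1, and 14 and 17, and without LP-1-eGFP bortezomib 24 h replicate 2 it was 12 and 17. That of the fading probes turned from 23 and 13 to 38 and 46 with array weights. With normexp background correction, 2272 probes were called between the times with bortezomib, 1 in untreated cells and 1769 for the difference between the time changes, with 15 early and fading, 182 held and 33 differing between lines. When a probe had to be well above background on every array, fewer were tested, and the counts were 1824 (845 higher and 979 lower), 1 and 1694, with 20 fading, 74 increasing further, 1432 late, 206 held and 65 differing between lines. Array weights gave 12 in untreated cells, 84 fading and 0 between lines, and 8 condition means gave 3 in untreated cells. The count between lines was 6 with scaling to the 75th percentile, 9 with the deposited table and 7 with the slide as a block. Scaling to the 75th percentile moved the median time change of all probes from -0.07 to 0.09. The cause of these moves was otherwise not tested.

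Leaving out each array in turn gave 3391 to 4551 calls between the times with bortezomib, 0 to 2 in untreated cells and 2275 to 3066 for their difference. It gave 28 to 57 fading, 88 to 136 increasing further, 1925 to 2567 late and 254 to 396 held probes, and 0 to 7531 between lines. Where 1 array of a condition was left, it was assumed to vary like the others. Over 298 gene results, 4609 of 4768 such values kept their side of the threshold and 159 lost it, and under the other alternatives 2564 of 2666 kept it and 102 lost it.

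Replicate numbers did not pair the samples. The correlation of deviations between conditions was -0.113 to 0.236 over 28 pairs, with a median of 0.036 and 7 above 0.1. With the replicate block, 3934 probes were called between the times with bortezomib, 0 in untreated cells, 2817 for the difference, 2374 late and 13 between lines. Signal over background limits genes near background at 24 h.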

Other observations

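Other gene groups were looked at after their leading members had been seen, and are given as descriptions. Genes of MHC class II, which presents antigen to helper T cells, were lower at 24 h than at 6 h with bortezomib in 8 of 14 genes (57.1%, against 8.23% of all genes) and higher in 0, and in 6 without the array of lowest signal, with a median change of -1.10 against 0.12 in untreated cells and -0.07 over all genes. CIITA, the master activator of these genes, measured 10.28, 10.72, 11.62 and 12.02 at 6 h and 5.19, 7.33, 9.41 and 9.82 at 24 h, while its second probe changed by -0.07. HLA-DMB, which loads peptides, fell by 2.03, HLA-DRA by 1.15 and CD74, the invariant chain, by 1.11. Each of these 3 genes was lower at 24 h in both lines, and the fall of CIITA was 2.57 without the array of lowest signal.

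Of 45 interferon-stimulated genes tested, 8 rose between the times with bortezomib (17.8%, against 4.48% of all genes) and 2 fell (4.44%, against 8.23%), with a median change of 0.23, which was 0.38 with arrays scaled to the 75th percentile. IRF7 and STAT2, which carry interferon signals, rose by 1.63 and 1.49 beside IFIT3 and IFIT1, whereas IFITM1 fell by 2.29 and MX2 by 1.62. IFITM1 had a value on 3 of the 4 arrays at 24 h and was well above background on 2. The interferon-stimulated response element was in 21 of 35 promoters of this list (60%), against 3.65% of all promoters and 3.01% of those of the genes tested. Among 25 chemokines 7 rose (28%, against 4.48% of all genes) and 1 fell (4.0%, against 8.23%; 3 fell without the array of lowest signal), with a median change of 0.02, or 0.36 with that scaling. The one that fell was CXCL10, itself an interferon target, from 11.24, 11.22, 11.40 and 11.67 at 6 h to 7.65, 7.90 and 8.59 on the 3 arrays with a value at 24 h. Of 9 annexins, ANXA1 rose and limma called 0 others between the times. At an unadjusted p under 0.05, 4, ANXA1 among them, were higher (44.4%, against 20.5% of all genes). By the same measure 3 were lower (33.3%, against 26.6%), not far from the share of all genes. Against untreated cells at 24 h, ANXA3 had a called effect of -1.62 and ANXA4 of -1.05.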
